A study of Rattus norvegicus with 9 samples.

Results

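NF-Y is a transcription factor built from the products of 3 genes, Nfya, Nfyb and Nfyc, and their transcripts were followed in cultured rat heart muscle cells. The members were chosen by gene symbol alone, as the rows of the deposited tables with these symbols: 3 of 28935 genes in the count table, 3 of 14986 in the RPKM table (reads scaled to gene length and library size) and 3 of 14151 genes with enough counts to be tested. Primary ventricular myocytes from Sprague-Dawley rats aged 1 or 2 days spent 48 h in culture with 3% fetal bovine serum. They then received 8 µL of adenovirus in 1 mL of serum-free medium for 48 h before RNA was taken for stranded mRNA libraries. The virus carried GFP (a fluorescent protein, the control), Nfya or Nfe2l1 (a basic leucine zipper transcription factor), with 3 libraries in each group, so the control cultures were also infected. The aim as stated by the submitters was overexpression of each factor. The labels do not give the species or isoform of the viral Nfya or Nfe2l1 sequence, nor whether replicate libraries stem from different cultures. The p-values then measure no more than the variation among the 9 libraries at hand, which could be technical. For the 3 subunits the p-values of the main fit rest on counting error, because the fitted spread between libraries was smaller still. They therefore say nothing of the spread between cultures.

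NF-Y recognises the CCAAT box of promoters as a heterotrimer. The NFYB and NFYC proteins pair through histone folds, the fold that joins core histones, and NFYA then joins the pair and makes the sequence-specific contact with CCAAT. NFYA is regarded as the regulatory subunit, and the complex is best known at promoters of cell-cycle, endoplasmic reticulum chaperone and sterol synthesis genes.

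The 9 libraries held 5712123 to 7310774 counts assigned to genes. The tested genes carried 99.8% of them, and each subunit had 425 to 695 counts in a library. The 3 Nfya-labelled libraries differed from one another by no more than sampling noise over the tested genes (chi-square per gene of 0.969 to 1.00 for the 3 pairs), whereas pairs of GFP libraries gave 1.06 to 1.67 and pairs of Nfe2l1-labelled libraries 1.12 to 1.53. No 2 libraries were identical. The labels do not say whether the 3 Nfya-labelled libraries come from different cultures, and their likeness cannot settle it. They were kept as 3 samples, and the log2 fold change of Nfya is also given with their counts summed into 1 sample. The permutation tests of subunit ratios treat each of them as a separate sample.

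The targeted gene was examined first. Relative to the GFP libraries, Nfya transcript was 11% higher in the Nfya-labelled and 15% higher in the Nfe2l1-labelled libraries, and it was not higher under the Nfya virus than under the Nfe2l1 virus. The level of Nfya therefore did not tell the Nfya label from the Nfe2l1 label in the direction the labels give, and groups are called by their labels throughout. Nfyb and Nfyc did not pass the test in any of the 3 comparisons. Levels for comparisons between libraries are CPM, counts scaled to library size, after normalization by the trimmed mean of M values (TMM).

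Promoter windows of 300 bases (250 before and 50 after the transcription start) were read from RefSeq, build GRCr8, which matched Nfya and Nfyb. They are shown because the complex binds CCAAT and because Nfya was called higher while Nfyb was not. Each was searched for CCAAT on both strands, which reads as CCAAT or ATTGG on the gene's own strand, and matches are in capitals. The Nfya window lies at chr9:20084831-20085130 on the plus strand. The Nfyb window lies at chr7:22852296-22852595 on the plus strand.
Nfya: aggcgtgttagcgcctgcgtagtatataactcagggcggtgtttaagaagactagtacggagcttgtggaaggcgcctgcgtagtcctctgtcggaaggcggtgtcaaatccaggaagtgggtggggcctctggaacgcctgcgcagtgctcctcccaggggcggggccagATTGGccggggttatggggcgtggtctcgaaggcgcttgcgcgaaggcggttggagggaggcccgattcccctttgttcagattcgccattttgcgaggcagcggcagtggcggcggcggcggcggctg
Nfyb: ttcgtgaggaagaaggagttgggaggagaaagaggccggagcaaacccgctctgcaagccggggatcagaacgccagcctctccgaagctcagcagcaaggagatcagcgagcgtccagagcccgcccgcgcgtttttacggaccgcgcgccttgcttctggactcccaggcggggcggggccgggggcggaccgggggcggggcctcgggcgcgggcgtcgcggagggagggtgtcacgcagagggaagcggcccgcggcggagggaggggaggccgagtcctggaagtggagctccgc
The Nfya window held 1 match, an ATTGG whose first base lies 79 bases before the start. The Nfyb window held 0 matches of these letters. A match occurred in 37.5% of all 33469 RefSeq promoter windows, so its presence in the Nfya window is common among promoters. One promoter window of Oard1, the neighbouring gene on the minus strand, lies at chr9:20084759-20085058, overlaps that of Nfya and holds the same match, 198 bases before the Oard1 start. GC content was 63.7% in the Nfya window and 71.3% in the Nfyb window.

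Nfya, the DNA-binding subunit, was at 81.4, 81.9 and 77.8 CPM in GFP libraries 1, 2 and 3. It was at 89.2, 88.3 and 89.6 CPM in the Nfya-labelled libraries, and at 90.5, 91.7 and 94.8 CPM in the Nfe2l1-labelled libraries. Every library of both factor viruses lay above every GFP library, and every Nfe2l1-labelled library lay above every Nfya-labelled one on this scale. In the deposited RPKM the last did not hold: Nfya was at 25.7, 25.4 and 25.8 RPKM in the Nfya-labelled and at 25.6, 25.8 and 27.2 RPKM in the Nfe2l1-labelled libraries, which overlap. The raw counts behind these levels were 531, 554 and 440 under GFP, 582, 581 and 601 under the Nfya virus, and 582, 585 and 695 under the Nfe2l1 virus.

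Against GFP (80.4 ± 2.19 CPM, SD, n = 3), the Nfya-labelled libraries (89.0 ± 0.683 CPM, n = 3) were higher by a log2 fold change of 0.15 ± 0.05 (counting standard error). The ratio of scaled counts was 1.11, with an exact 95% counting interval of 1.03 to 1.19. The edgeR quasi-likelihood test called the difference (Benjamini-Hochberg adjusted p = 0.00926 over all genes tested). Its p-value for Nfya was set by counting error, since the fitted standard error (0.037) was below the counting standard error (0.050). With the 3 Nfya-labelled libraries summed into 1 sample the log2 fold change was 0.17. Summing keeps the same counts, so it cannot show whether the difference would recur in separate cultures. DESeq2 gave 0.16 and did not call the difference (adjusted p = 0.0843). In the same comparison, 24.3% of all genes tested were called higher and 52.2% were called in either direction. A non-overlap of the groups with the Nfya-labelled libraries higher occurred in 28.4% of genes. A larger absolute change than that of Nfya was found in 60.2% of genes, and the median absolute log2 fold change of the called genes was 0.37.

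Against GFP, the Nfe2l1-labelled libraries (92.3 ± 2.20 CPM, n = 3) were higher in Nfya by a log2 fold change of 0.20 ± 0.05, a count ratio of 1.15 with an exact 95% counting interval of 1.07 to 1.23 (edgeR adjusted p = 2.06e-04). Here 28.9% of all genes tested were called higher, 58.6% were called in either direction, and 31.7% had groups that did not overlap with the Nfe2l1-labelled libraries higher. A larger absolute change was found in 54.9% of genes. The 2 comparisons share the GFP libraries, so they are not independent of each other.

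The direct comparison of the viruses gave a ratio of 0.963 for Nfya in the Nfya-labelled over the Nfe2l1-labelled libraries (exact 95% counting interval 0.902 to 1.03), a log2 fold change of -0.05 ± 0.05 that was not called (edgeR adjusted p = 0.361). The groups did not overlap in CPM, though they did in RPKM, and a non-overlap in this direction was shown by 29.7% of genes, and 50.6% of genes were called. In rising order the levels of Nfya were GFP, Nfya-labelled and Nfe2l1-labelled. The first step in that order was called and the second was not.

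**Figure D1:**
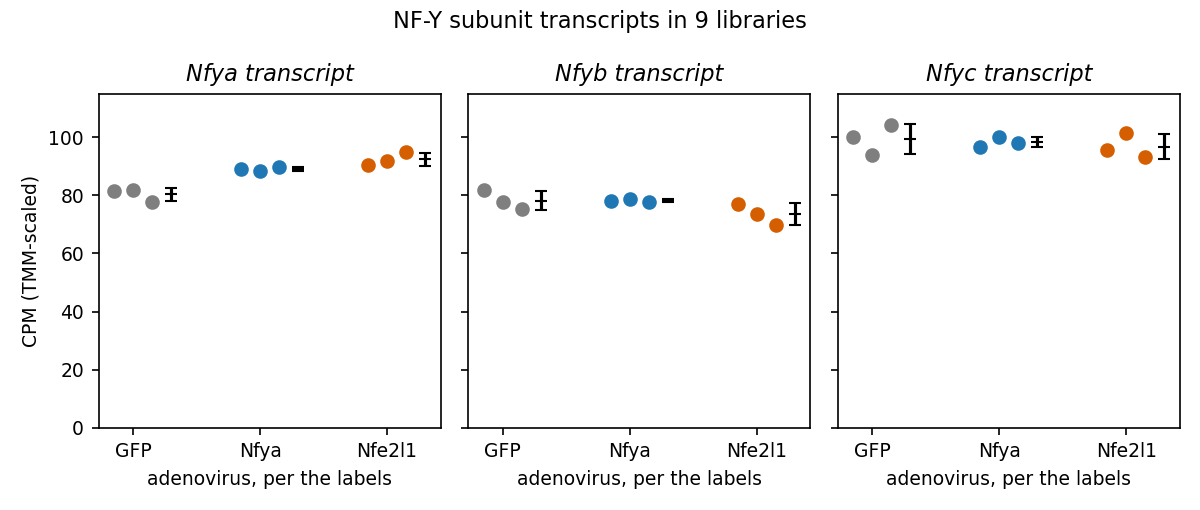
TMM-scaled CPM of Nfya, Nfyb and Nfyc (vertical axis) in each of the 9 libraries, by group, with the group mean and SD. Nfya lies at 77.8 to 81.9 CPM under GFP and at 88.3 CPM or above in all 6 libraries of the factor viruses, whereas the Nfyc groups overlap in every comparison.

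Nfyb, one of the pair of histone-fold subunits, was at 81.8, 77.6 and 75.2 CPM in the GFP libraries, at 77.9, 78.7 and 77.7 CPM in the Nfya-labelled libraries and at 77.1, 73.7 and 69.7 CPM in the Nfe2l1-labelled libraries. The GFP range overlapped both other ranges, while the Nfya-labelled and Nfe2l1-labelled ranges lay next to each other without overlap. The count ratio over GFP was 0.997 in the Nfya-labelled libraries (exact 95% counting interval 0.928 to 1.07, edgeR adjusted p = 0.954). It was 0.936 in the Nfe2l1-labelled libraries (0.871 to 1.01, adjusted p = 0.112). Between the viruses the ratio was 1.07 (0.991 to 1.14, edgeR adjusted p = 0.139), where 30.3% of genes had Nfya-labelled libraries that all lay above the Nfe2l1-labelled ones. This last difference passed the test without Nfe2l1 library 1 (log2 fold change 0.14, edgeR adjusted p = 0.0352) and with upper quartile scaling (0.12, adjusted p = 0.0378).

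Nfyc, the other histone-fold subunit, was at 100.2, 93.8 and 104.0 CPM in the GFP libraries, at 96.7, 100.1 and 98.0 CPM in the Nfya-labelled libraries and at 95.6, 101.4 and 93.0 CPM in the Nfe2l1-labelled libraries. All 3 groups overlapped one another. The count ratio over GFP was 0.992 in the Nfya-labelled libraries (exact 95% counting interval 0.931 to 1.06, edgeR adjusted p = 0.858) and 0.974 in the Nfe2l1-labelled libraries (0.914 to 1.04, adjusted p = 0.499). Between the viruses it was 1.02 (0.956 to 1.09, edgeR adjusted p = 0.664). Among all genes tested, 96.2% changed more than Nfyc and 98.8% changed more than Nfyb between the Nfya-labelled and GFP libraries.

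The authors' deposited table of the Nfya virus against GFP gives log2 fold changes of 0.18 for Nfya (false discovery rate 0.00128), 0.03 for Nfyb (0.657) and 0.02 for Nfyc (0.721). The authors' deposited table of the Nfe2l1 virus against GFP gives 0.20 for Nfya (2.60e-04), -0.09 for Nfyb (0.149) and -0.04 for Nfyc (0.573). Both tables place Nfya alone of the subunits past a rate of 0.05.

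**Figure D2:**
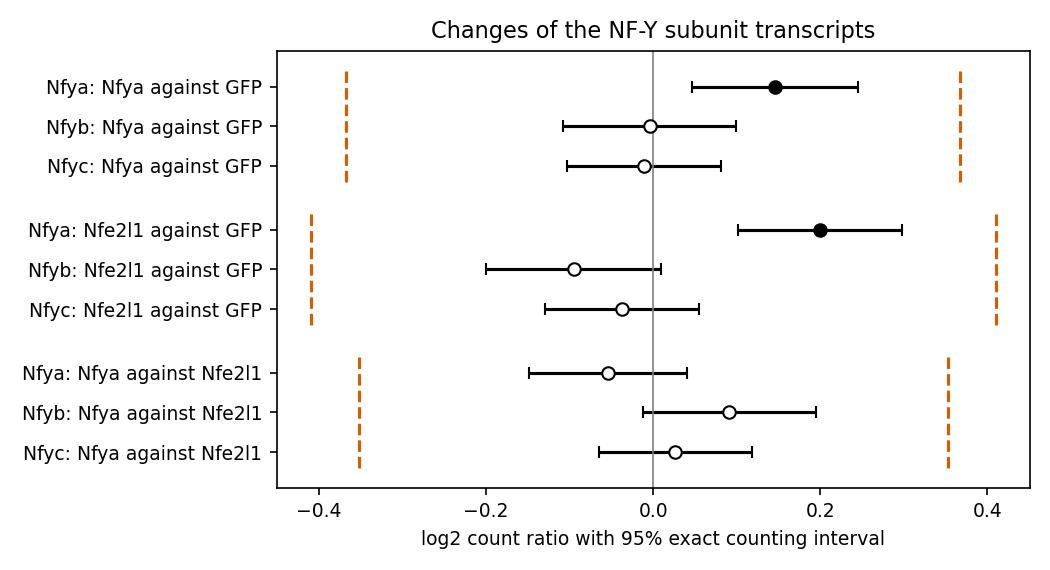
Log2 fold change of each subunit (horizontal axis) in the 3 comparisons, with the exact 95% counting interval. The intervals of Nfya lie above 0 against GFP in both factor-virus groups, and those of Nfyb and Nfyc include 0 in all 3 comparisons.

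The spread between libraries was below what counting alone gives in most cases, and far below it in some. For 6 of the 9 pairs of subunit and group, the coefficient of variation was below the counting error. In the Nfya-labelled libraries it was 0.767% for Nfya, with a counting error of 4.12%, and 0.703% for Nfyb, with one of 4.40%. The widest spread was that of Nfyc in the GFP libraries, 5.19% against 4.0%. The libraries at the ends of the depth range stood at the ends of their groups. The shallowest library, GFP 3, had the lowest Nfya and Nfyb and the highest Nfyc of its group, and the deepest, Nfe2l1-labelled 3, had the highest Nfya and the lowest Nfyb and Nfyc of its group, so Nfyb was lowest at both ends of the range. Without both, the log2 fold change of Nfya was 0.13 in the Nfya-labelled libraries (edgeR adjusted p = 0.0489) and 0.16 in the Nfe2l1-labelled libraries (adjusted p = 0.0193). The part of depth in these levels was not tested.

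Levels of different genes were compared per length, as RPKM. Nfyc was the most abundant subunit transcript, at a mean of 48.7 RPKM over the 9 libraries, above 84.1% of the 14986 genes of that table. Nfyb followed with 30.1 RPKM (above 66.5% of genes) and Nfya with 24.9 RPKM (above 60.0%). This order of the 3 subunits held in each of the 9 libraries. The deposited gene lengths behind the scale are 2011 bases for Nfyc, 2545 for Nfyb and 3503 for Nfya. The order of Nfyb above Nfya rests on these lengths, as mean CPM was higher for Nfya than for Nfyb in all 3 groups.

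The summed RPKM of the 3 subunits was 102.7 ± 2.33 in the GFP libraries, 105.8 ± 0.865 in the Nfya-labelled and 102.7 ± 1.48 in the Nfe2l1-labelled ones (mean ± SD of 3 libraries). Of this sum, Nfya made up 22.3 ± 0.900% under GFP, 24.2 ± 0.367% in the Nfya-labelled libraries and 25.5 ± 1.17% in the Nfe2l1-labelled libraries. The share of Nfyb was 29.8 ± 1.1%, 29.2 ± 0.130% and 27.9 ± 1.11% in the same order, and that of Nfyc was 47.9 ± 1.84%, 46.6 ± 0.423% and 46.5 ± 1.09%. Transcript shares say nothing of the amounts of protein or of assembled complex.

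The ratio of Nfya to Nfyb RPKM was 0.722, 0.767 and 0.752 in the GFP libraries, 0.832, 0.815 and 0.838 in the Nfya-labelled libraries and 0.852, 0.904 and 0.989 in the Nfe2l1-labelled libraries. The 3 groups did not overlap. An exact permutation test over the 9 libraries gave p = 0.00357 for a difference among the groups, the smallest value that 3 groups of 3 allow, and 0.0107 after adjustment over the 3 ratios. Between any 2 groups the exact permutation p was 0.1, the smallest that 3 against 3 libraries can give.

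The ratio of Nfya to Nfyc was 0.466 ± 0.0355 under GFP, 0.520 ± 0.0124 in the Nfya-labelled libraries and 0.549 ± 0.0335 in the Nfe2l1-labelled libraries (exact permutation p = 0.0143, adjusted 0.0214). Both factor-virus groups lay above the GFP group and overlapped each other. This difference passed the threshold no longer when GFP 3 and Nfe2l1-labelled 3 were left out (exact permutation p = 0.0762, adjusted 0.114), nor in 6 of the 9 cases with 1 library left out, which were GFP 3, each Nfya-labelled library, and Nfe2l1-labelled 1 and 3 (adjusted exact p of 0.0643 to 0.0857). The ratio of the histone-fold partners, Nfyb to Nfyc, was 0.623 ± 0.0452, 0.628 ± 0.00761 and 0.601 ± 0.0326 in GFP, Nfya-labelled and Nfe2l1-labelled libraries, with overlap throughout (exact permutation p = 0.629, adjusted 0.629).

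**Figure D3:**
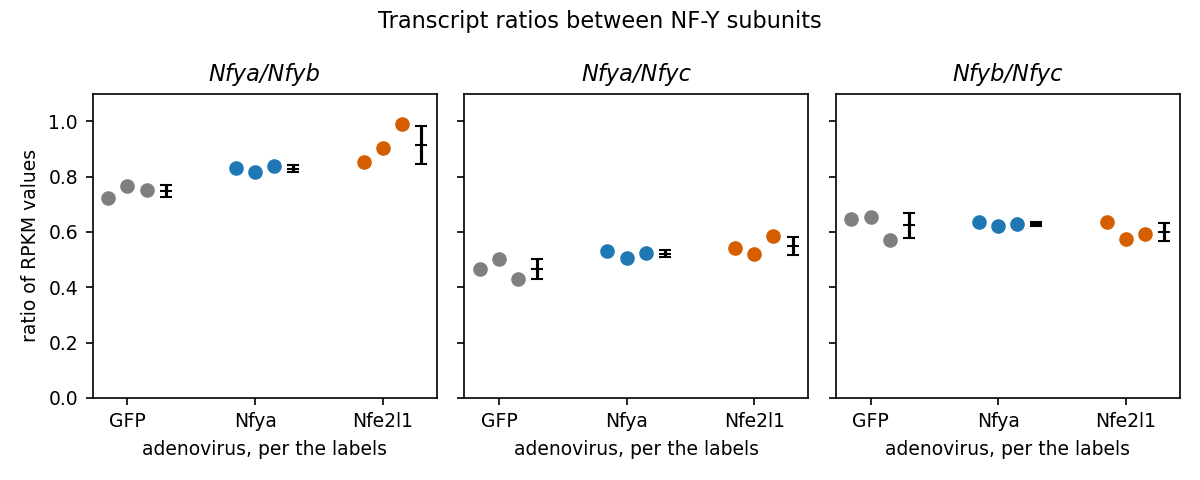
Ratios of subunit RPKM values (vertical axis) in each of the 9 libraries by group, with the group mean and SD. The ratio of Nfya to Nfyb separates the 3 groups, from 0.722 to 0.767 under GFP up to 0.852 to 0.989 in the Nfe2l1-labelled libraries, while the ratio of Nfyb to Nfyc overlaps in all groups.

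Across the 9 libraries, log2 CPM of Nfya and Nfyb had a Pearson r of -0.496, Nfya and Nfyc one of -0.471, and Nfyb and Nfyc one of 0.269. These are descriptions over libraries that share group, depth and scaling. Of 11935 genes with a mean of at least 5 CPM, the patterns most like that of Nfya over the 9 libraries were those of Ttpal (r = 0.986), Tor4a (0.986) and Tnks1bp1 (0.985), and the most opposed was that of Carhsp1 (-0.995). Tor4a was at 10.3 CPM under GFP, 27.6 in the Nfya-labelled and 36.5 in the Nfe2l1-labelled libraries, so it kept the order of Nfya with a far wider range. For Nfyb the most similar were Pcdhga4 (0.883), Uckl1 (0.881) and Pex10 (0.879), and for Nfyc they were Snrnp200 (0.992), Ndufb5 (0.943) and Ndufb2 (0.925). The most opposed were Pknox1 for Nfyb (-0.920) and Malsu1 for Nfyc (-0.882).

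Genes next to the subunit genes were read from the RefSeq gene order. Oard1, which encodes an ADP-ribose hydrolase and lies beside Nfya, was at 35.2 ± 1.95 CPM under GFP, 37.5 ± 0.245 in the Nfya-labelled and 39.7 ± 1.01 in the Nfe2l1-labelled libraries (n = 3 each), which is the same order as that of Nfya. Its log2 fold change over GFP was 0.09 in the Nfya-labelled libraries (edgeR adjusted p = 0.352) and 0.17 in the Nfe2l1-labelled libraries (adjusted p = 0.0480, a call lost in 9 of 22 alternatives, with adjusted p of 0.00566 to 0.209). Treml1, on the other side of Nfya, had 12 counts in all libraries together. Hcfc2, beside Nfyb, did not pass the test against GFP in the Nfya-labelled libraries (log2 fold change -0.11, edgeR adjusted p = 0.0788) or in the Nfe2l1-labelled libraries (0.06, adjusted p = 0.332). Without Nfya-labelled 3, Hcfc2 did pass against GFP under the Nfya virus (edgeR adjusted p = 0.0401), as with limma on log2(RPKM + 1) (adjusted p = 0.0462). It was called lower in the Nfya-labelled than in the Nfe2l1-labelled libraries (-0.17, edgeR adjusted p = 0.00411), where 50.6% of genes were called. DESeq2 did not call that difference (adjusted p = 0.109). The microRNA genes Mir30c1 and Mir30e lie within Nfyc and had 0 and 2 counts. Nfe2l1 itself, the other targeted gene, was at 240.7 CPM under GFP, 222.7 in the Nfya-labelled and 239.4 in the Nfe2l1-labelled libraries. It was thus not higher under its own virus either (log2 fold change -0.01, edgeR adjusted p = 0.856). In the Nfya-labelled libraries it was called lower against GFP (-0.11, edgeR adjusted p = 0.00784), where 27.9% of genes were called lower. Against the Nfe2l1-labelled libraries it was also called lower (-0.10, edgeR adjusted p = 0.0120). Both of these calls were lost with DESeq2 (adjusted p = 0.102 and 0.115) and under several other alternatives.

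RefSeq lists 10 transcripts of Nfya, 3 of Nfyb and 4 of Nfyc. The deposited values are one per gene, so they do not separate the isoforms of NFYA, which differ in the transactivation part of the protein.

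Groups of genes around the complex, 4 in all, are given by their counts of calls, with no test of the group, and changes of single genes are log2 fold changes against GFP. Over all genes tested, 24.3% were called higher and 27.9% lower in the Nfya-labelled libraries, and 28.9% higher and 29.7% lower in the Nfe2l1-labelled libraries. Of 13 tested genes with the histone fold that NFYB and NFYC share, such as TFIID subunits, 3 were called higher and 3 lower in the Nfya-labelled libraries against GFP (median log2 fold change -0.07, against -0.02 for all genes tested). Under the Nfe2l1 virus, 2 were called higher and 3 lower (median 0.02, against -0.01). DESeq2 called 1 higher and 1 lower under the Nfya virus, and 1 higher under the Nfe2l1 virus. Taf6, a TFIID subunit, rose by 0.20 in the Nfya-labelled libraries, and Taf8 fell by 0.27. Taf13 rose by 0.30 in the Nfe2l1-labelled libraries, where Taf4 and the DNA polymerase epsilon subunit Pole3 each fell by 0.39.

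Other factors named for CCAAT or the Y-box (C/EBP, NFI, Y-box and Cux proteins) held more lower calls than higher ones. In the Nfya-labelled libraries against GFP, 3 of 14 were called higher and 8 lower (median -0.12), and DESeq2 called 5 lower. Under the Nfe2l1 virus, 3 were called higher and 6 lower (median -0.06). Cux2, a homeodomain protein related to the CCAAT displacement factor, fell by 0.43 and 0.61 in these comparisons and Cebpg, a C/EBP member, fell by 0.20 and 0.18. Cebpa, which is low in these cells, rose from 8.31 CPM under GFP to 16.6 CPM in the Nfe2l1-labelled libraries.

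Partner factors, which bind or act beside NF-Y at promoters, went both ways. In the Nfya-labelled libraries against GFP, 3 of 17 were called higher and 5 lower (median -0.07), a count of lower calls that was 3 under 14 of the 22 alternatives. Mybl2 and Foxm1, activators of mitotic genes, rose by 0.92 and 0.66, while the coactivator Crebbp and the E-box factor Usf1 each fell by 0.36. With the Nfe2l1 virus, 5 were called higher and 6 lower (median -0.00). Lin54, the DNA-binding subunit of the MuvB complex, rose by 0.51 and the sterol factor gene Srebf1 by 0.49, while Rfx5, the RFX factor of class II promoters, fell by 0.52. Under this virus Foxm1 was at 43.7 ± 1.06 CPM, below its 58.6 ± 1.57 CPM under GFP. Mybl2 was at 77.5 ± 4.83 CPM there, against 69.7 ± 5.05 CPM under GFP.

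Genes known from textbooks as CCAAT-box targets were called in different numbers under the viruses. In the Nfya-labelled libraries against GFP, 11 of 22 were called higher and 3 lower (median 0.09). The number of higher calls was 11 under all 22 alternatives, while the lower calls numbered 0 to 3. With the Nfe2l1 virus, 7 were called higher and 9 lower (median -0.07), and the lower calls numbered 4 to 9 under the alternatives. Top2a, the DNA topoisomerase of dividing cells, was at 178.3 ± 8.84 CPM under GFP and 298.9 ± 4.62 CPM in the Nfya-labelled libraries, a rise of 0.74. Cdk1, the mitotic kinase, went from 41.8 ± 1.50 to 66.0 ± 0.963 CPM, a rise of 0.66, and Tk1, the thymidine kinase of S phase, rose by 0.93. In the Nfe2l1-labelled libraries Cdc25b, a CDK-activating phosphatase, was at 99.6 ± 3.43 CPM against 52.9 ± 3.62 under GFP, a rise of 0.91, and Tk1 rose by 0.69. Under the Nfe2l1 virus Top2a and Cdk1 went the other way, with log2 fold changes of -0.09 and -0.17 (edgeR adjusted p = 0.0353 and 0.0358). Both calls were lost with DESeq2 (adjusted p = 0.174 and 0.192), without any 1 of the Nfe2l1-labelled libraries and without GFP 1, that of Top2a also without GFP 2 and that of Cdk1 without GFP 3 (edgeR adjusted p of 0.0658 to 0.263 for Top2a and 0.0712 to 0.113 for Cdk1). Both were also lost with no low count filter (edgeR adjusted p = 0.209 and 0.140). The same held with a filter at a mean of 5 CPM (edgeR adjusted p = 0.0790 and 0.0629). That of Top2a was lost with a replicate block (edgeR adjusted p = 0.0662) and with only the 6 libraries compared (0.0541). It was lost in both limma fits as well (adjusted p = 0.0620 and 0.0655). Cdc25b did not pass the test under the Nfya virus (-0.06). Cdc25c, a further CDK-activating phosphatase, rose by 1.06 in the Nfe2l1-labelled libraries and by 0.66 in the Nfya-labelled ones. The collagen gene Col1a1, also on this list, rose by 0.60 in the Nfya-labelled and by 0.52 in the Nfe2l1-labelled libraries.

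The stretch around the last CCAAT match before the transcription start is shown for 3 of these genes. Top2a and Cdk1 rose under the Nfya virus only, and Cdc25b under the Nfe2l1 virus only. Each stretch is read 5′ to 3′ on the gene's strand in GRCr8 with the match in capitals. Top2a lies at chr10:84473134-84473162 on the minus strand, Cdk1 at chr20:19265232-19265260 on the plus strand and Cdc25b at chr3:138860090-138860118 on the plus strand.
Top2a: agcgagtcggtgATTGGttcctctgattt
Cdk1: acgtgcaatcggATTGGcggacccgggga
Cdc25b: accggcgcccccATTGGtggcgtctggcg
The 300-base windows of Top2a, Cdk1 and Cdc25b held 4, 3 and 1 matches, and these lay 57, 49 and 71 bases before the start. The window of Tk1 held 0 matches. Of the tested target genes with a window, 15 of 16 held at least 1 match, against 37.5% of the windows of all 10260 tested genes that matched, a difference that the choice of textbook CCAAT genes brings with it. Over all tested genes with a window, the share called higher in the Nfya-labelled libraries against GFP was 24.5% of the 6416 with no match, 25.2% of the 2479 with 1 match and 26.6% of the 1365 with 2 or more. The share called lower was 30.0%, 27.3% and 27.4%. In the Nfe2l1-labelled libraries the shares called higher were 29.7%, 32.4% and 27.5%, and those called lower 31.2%, 27.7% and 32.4%. In the 150 bases before the start, shares called higher in the Nfya-labelled libraries were 24.5%, 26.3% and 25.9% in the same order.

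**Figure D4:**
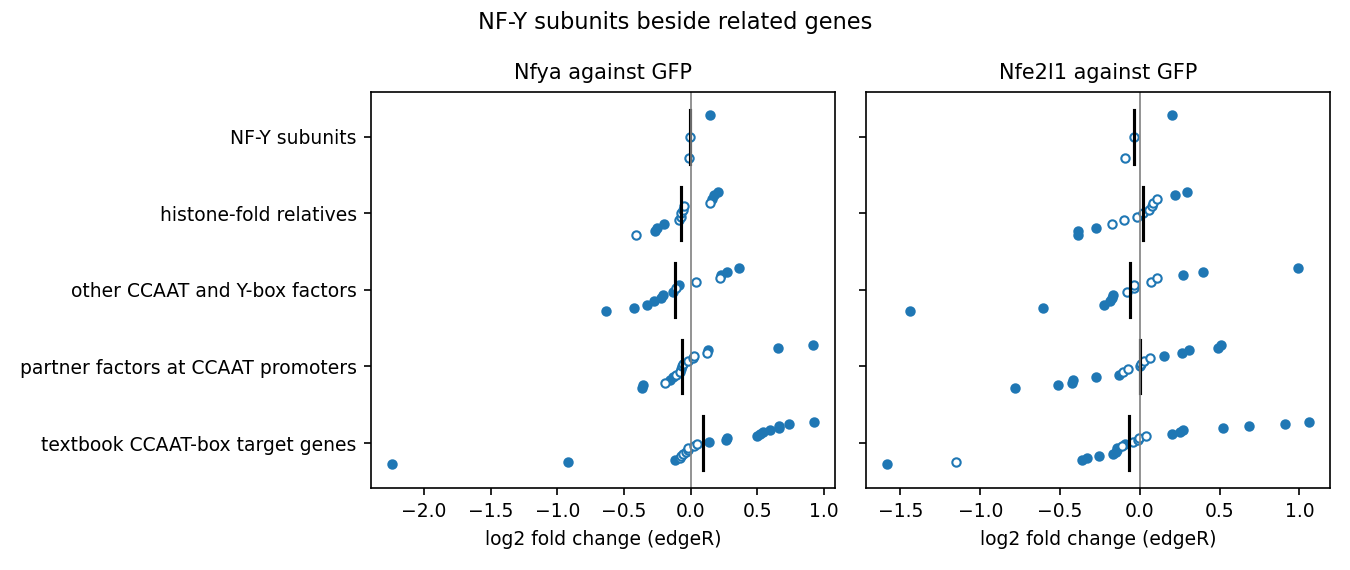
Log2 fold change against GFP (horizontal axis) of each tested gene in the 4 groups around NF-Y and of the 3 subunits, for both factor viruses, with called genes marked apart from the others. The subunits lie between -0.09 and 0.20, while textbook CCAAT targets reach 0.93 (Tk1) in the Nfya-labelled and 1.06 (Cdc25c) in the Nfe2l1-labelled libraries.

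Markers of cell types in a ventricular culture were measured beside the subunits. Summed levels of 11 cardiomyocyte markers were 3454 to 3832 CPM under GFP, 3700 to 3758 in the Nfya-labelled and 3325 to 3677 in the Nfe2l1-labelled libraries, with 3 called higher and 0 lower in the first comparison with GFP and 0 higher and 2 lower in the second. The cardiomyocyte counts were not stable: under the Nfe2l1 virus they were 0 to 4 higher and 0 to 4 lower over the alternatives. Without Nfe2l1-labelled 3 they were 1 higher and 0 lower, without Nfe2l1-labelled 2 there were 4 lower, and without either Nfe2l1-labelled 1 or GFP 3 there was 1 lower. Without GFP 3 and Nfe2l1-labelled 3 together they were 4 higher and 0 lower, and 6 were higher under the Nfya virus. All 8 fibroblast markers were called higher in both, from a sum of 258.3 to 271.7 CPM under GFP to 667.5 to 689.9 in the Nfya-labelled and 534.3 to 541.9 in the Nfe2l1-labelled libraries. Epicardial markers numbered 6 called higher of 6 in both, and endothelial markers 5 higher and 1 lower of 7 in both. Of 6 tested smooth muscle markers, 4 were called higher and 1 lower under the Nfya virus and 1 higher and 3 lower under the Nfe2l1 virus, and of 6 macrophage markers, 4 were called higher and 1 lower, then 3 higher and 0 lower. DESeq2 called 2 smooth muscle and 2 macrophage markers higher under the Nfya virus. Schwann and neural markers summed to 19.2 to 19.9 CPM under GFP, 23.1 to 27.99 in the Nfya-labelled and 41.1 to 43.1 in the Nfe2l1-labelled libraries, with 1 and 2 of 2 tested genes called higher. The part of these cells in the Nfya difference was not tested. In bulk RNA a change in the number of cells of a type and a change in RNA per cell cannot be told apart.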

How the data were processed

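Per the submitters' processing notes, the tools for the stranded mRNA libraries included edgeR 3.20.5, featureCounts 1.6.0 and FastQC 0.11.4, and the builds named are rn6, mm10 and GRCm38. Aligner, annotation and strand setting: not given in the sources used here. Counts per gene and RPKM values were deposited by the authors. The RPKM of the subunits differ from plain scaling of the deposited counts by at most 0.0451%. The authors' deposited comparison tables hold log2 fold changes and log2 CPM, a likelihood ratio score, p-values and adjusted p-values per gene. The RPKM row with no gene name (1) was left out.

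All 9 libraries were fitted together with edgeR 4.0.16 (R 4.3.3) on the deposited counts: filterByExpr by group, TMM scaling, quasi-likelihood F tests and Benjamini-Hochberg adjustment over the 14151 genes tested, with a call at an adjusted p of 0.05. The standard error of that fit was below the counting error for the subunits, so counting errors and exact 95% (Clopper-Pearson) intervals of the scaled count ratio are given. They cover counting error only. For the subunits the p-values of the quasi-likelihood fit were likewise set by counting error and not by the spread between libraries. Ratios of subunits used RPKM and exact two-sided permutation tests over libraries. Alternatives were DESeq2 1.42.0, limma 3.58.1 on log2(RPKM + 1) and log2(RPKM + 0.1), other scalings and filters, a replicate block and leaving libraries out. The pipeline was tested on simulated data. Named genes were the subunits, up to 4 called genes with the smallest p per gene list and comparison, the 3 most and 1 least similar genes per subunit, neighbouring genes and Nfe2l1. The labels do not say that replicate numbers join libraries, so no pairing was used. Same-numbered libraries did not deviate together, though this cannot exclude a shared cell preparation. The members and lists were chosen with earlier results of these data known.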

Additional observations from a re-analysis of the deposited data

How the results depend on the processing

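Nfya kept its direction in both comparisons with GFP under all alternatives run. Against GFP in the Nfya-labelled libraries the call was lost only with DESeq2 (log2 fold change 0.16, adjusted p = 0.0843), and adjusted p over the 23 alternatives ran from 7.34e-04 to 0.0843. With 1 library left out the log2 fold change was 0.13 to 0.19 (edgeR adjusted p of 0.00108 to 0.0493). In the Nfe2l1-labelled libraries the call held under all 22 alternatives (log2 fold changes 0.16 to 0.24, adjusted p of 1.37e-05 to 0.0193). Between the viruses Nfyb passed the edgeR test with upper quartile scaling (0.12) and without Nfe2l1-labelled library 1, with a range of 0.073 to 0.14 when 1 library was left out. The ratio of Nfya to Nfyc in the Nfya-labelled libraries was 1.08 to 1.16 times that under GFP with 1 library left out, and 1.08 without GFP 3 and Nfe2l1-labelled 3 together, where the exact permutation test no longer passed. These last, and the summing of the Nfya-labelled libraries, were chosen after seeing the data. With DESeq2, 2486 genes were called lower in the Nfya-labelled libraries against GFP, where edgeR called 3953, and 2392 between the viruses, where edgeR called 3597. The cause was not tested. With a replicate block the log2 fold change of Nfya was 0.15 (edgeR adjusted p = 0.00995) and 0.20 (8.61e-04), and the block changed no call on a subunit. Correlations of deviations between same-numbered libraries were -0.0655 to 0.0485 for 9 pairs, and 6 of 18 best matches fell on the own number. Deviations were at sampling noise in the Nfya-labelled libraries and close to it for GFP 1 and 2 (chi-square per gene of 1.06). Low correlations therefore cannot show whether same-numbered libraries share a cell preparation. Scaling moved the median of the 11935 genes with a mean of at least 5 CPM by less than 0.1 on the log2 scale. Each subunit had 425 to 695 counts in a library. At the mean count of a group, counting error was 3.93% to 4.51%, which limits the differences that can be seen.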
